A study of Mus musculus and Mus musculus musculus x Mus musculus castaneus with 8 samples.

Results

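The mouse olfactory receptor gene clusters of chromosomes 2 and 9 were examined as stretches of chromatin whose genes are silent in muscle and fibroblast cells, a silence that was not measured here. They were taken as the intervals from 85.3 to 89.6 Mb on chromosome 2 (4.3 Mb) and from 37.7 to 39.8 Mb on chromosome 9 (2.1 Mb), in coordinates of the mm9 build. An open chromatin peak was counted as lying in a cluster when it overlapped the interval by at least 1 bp. Of the 151729 peaks in the 5 deposited lists, 40 met this rule. The list of C2C12 cells from 1000 cells held 30 of them, that from 50000 cells held 7, that of donor MEFs held 2, that of MEFs after NT into oocytes overexpressing Toca1 held 1 and that of MEFs after control NT held 0.

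The study mapped open chromatin by ATAC-seq, in which a transposase inserts sequencing adaptors into accessible DNA, before and after NT of somatic nuclei into Xenopus laevis oocytes. C2C12 is a mouse myoblast line of strain C3h, and its libraries were made from 50000 cells (2 libraries) or from 1000 cells (2 libraries). MEFs are embryonic fibroblasts, here from embryos of a cross with Mus musculus castaneus, and all 3 MEF conditions used 3000 permeabilized cells: before NT (1 library), 48 h after NT (2 libraries) and 48 h after NT into oocytes overexpressing Toca1, a protein that promotes actin polymerization (1 library). After NT, nuclei from pooled oocytes made up a sample. Libraries from 1000 cells went into PCR without the column purification that the others had. The study also used a smaller transposon reaction for 1000 cells than for 50000 cells. The cycles of the first PCR varied with the starting number of cells. The number of cells and these differences in handling therefore cannot be told apart. Each condition has 1 list of peaks, without scores or read numbers, so the depth is unknown, no spread between replicates can be given and no test between conditions was possible. Every interval given is an exact 95% interval for a number of peaks, and it covers counting error only.

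Olfactory receptors are G protein-coupled receptors that bind odorants on the cilia of sensory neurons in the nose. Their genes form one of the largest families of the mouse genome and lie side by side in tandem clusters. Each sensory neuron transcribes one allele of one receptor gene and keeps the others in heterochromatin, and most of these genes are not transcribed in other tissues. Peaks called in these intervals therefore were used as a gauge of what a peak list holds in chromatin of silent genes.

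The density of receptor genes was taken from the order of genes in the RefSeq table. Because that table is in another build (GRCm38.p6), it gave names and neighbours and no positions for the peaks. Between Lrrc55 and Ptprj on chromosome 2 it lists 293 olfactory receptor genes, 222 of them protein coding, among 334 genes. Between Panx3 and Zfp202 on chromosome 9 it lists 127, of which 95 are protein coding, among 146 genes. Only 6 other protein-coding genes are interspersed, namely Fads2b, Pramel7 and Pramel6 on chromosome 2 and Vwa5a, AW551984 and Tmem225 on chromosome 9. How far these stretches coincide with the intervals in mm9 was not determined.

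The receptor genes also share a sequence composition that sets them apart from most promoters. In the 250 bases before the gene start, 267 promoters of 265 of these receptor genes had a median GC content of 32.0% (quartiles 28.0% and 34.8%), against 52.8% (quartiles 45.6% and 61.4%) for 31903 promoters of other genes. None of the 267 reached a GC content of 50%, and 60.6% of the other promoters did. A CpG dinucleotide was missing from 45.3% of the receptor promoters and from 6.79% of the others, and the letters TATAAA, read on both strands, were found in 47.2% and 11.6%. Both measures depend on GC content, and whether they differ beyond it was not tested. For 64.7% of the 317 protein-coding receptor genes the model is shorter than 1000 bp with a length that is a multiple of 3, so that the given start may be the start codon. In the 36 promoters of models over 2000 bp, the median GC content was 34.8%.

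The following 100 bases before the gene start show this contrast, in lower case with each CpG in capitals, 5′ to 3′, from RefSeq in GRCm38.p6. Olfr1030 (chr2:85979212-85979311, plus strand) and Olfr147 (chr9:38401611-38401710, plus strand) are the receptor genes with models over 2000 bp whose GC content was nearest the median on each chromosome. Ptprj (chr2:90580596-90580695, minus strand, the more GC-rich of its listed promoters) and Zfp202 (chr9:40192216-40192315, plus strand) are the genes that end the receptor stretches.
Olfr1030: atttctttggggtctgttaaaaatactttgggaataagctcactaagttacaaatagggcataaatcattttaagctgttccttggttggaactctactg
Olfr147: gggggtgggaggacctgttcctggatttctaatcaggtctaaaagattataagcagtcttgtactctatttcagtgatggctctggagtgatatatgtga
Ptprj: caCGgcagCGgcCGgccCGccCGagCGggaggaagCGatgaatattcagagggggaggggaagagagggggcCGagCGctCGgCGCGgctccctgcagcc
Zfp202: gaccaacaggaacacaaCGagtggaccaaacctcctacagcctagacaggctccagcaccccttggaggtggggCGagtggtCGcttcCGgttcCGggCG

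The receptor promoters hold 0 CpG in these bases and the others hold 12 (Ptprj) and 6 (Zfp202). They are shown for their composition, and no peak could be placed on them.

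**Figure D1:**
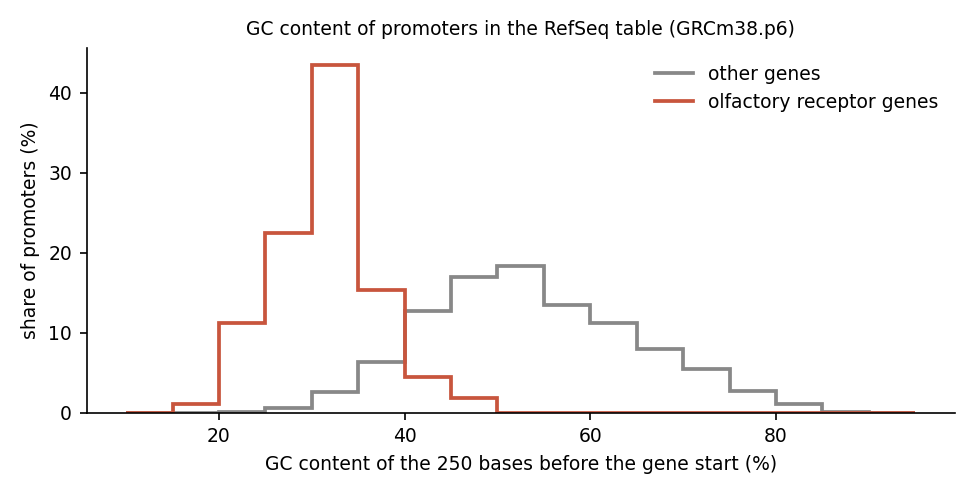
Share of promoters (y axis, %) by GC content of the 250 bases before the gene start (x axis, %) for olfactory receptor genes of the chromosome 2 and 9 stretches (red) and for all other genes (grey). The receptor promoters lie around a median of 32.0% and none reaches 50%, while the others lie around 52.8%.

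Peaks were sparse in the clusters in every list, and the degree differed between the C2C12 list from 1000 cells and the rest. Over both clusters, C2C12 cells from 50000 cells had 1.09 peaks per Mb (interval 0.440 to 2.25) against 21.7 per Mb in the rest of the same chromosomes, a ratio of 0.0505 (interval 0.0203 to 0.104). Donor MEFs had 0.313 peaks per Mb (interval 0.0378 to 1.13) against 17.9, a ratio of 0.0175 (interval 0.00212 to 0.0632). The list from 1000 C2C12 cells had 4.69 peaks per Mb (interval 3.16 to 6.69) against 13.6, a ratio of 0.345 (interval 0.233 to 0.494). Its clusters were thus 2.90-fold poorer in peaks than their surroundings, those of the 50000-cell list 19.8-fold and those of donor MEFs 57.2-fold.

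After control NT the clusters held no peak, whereas at the density of the rest of both chromosomes (3.87 per Mb) they would have held 24.8. With a count of 0 taken to allow up to 3 peaks, or 0.469 per Mb over both clusters, the density was at least 8.26-fold lower than outside. An exact interval would reach higher than this limit and give a smaller fold. With Toca1 there was 1 peak, or 0.156 per Mb (interval 0.00396 to 0.871), against 7.40 per Mb outside, a ratio of 0.0211 (interval 0.000534 to 0.118). The 2 NT lists therefore held between them 1 peak in 6.4 Mb. Whether NT changed the clusters was not detectable, since donor MEFs already had only 2 peaks there.

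The ratio of the 1000-cell list was 6.84 times that of the 50000-cell list from the same cell line (interval 2.94 to 18.5), and 19.7 times that of donor MEFs (interval 5.01 to 171). The 50000-cell and donor MEF ratios differed by 2.89 times, with an interval from 0.550 to 28.5 that includes equality. These intervals cover counting error only and treat peaks as independent. They are therefore no test of whether conditions are alike or differ. C2C12 cells and MEFs differ in genotype, cell type and number of cells used, which cannot be told apart here. As a share of the whole list, the clusters held 0.0863% of the 1000-cell peaks (interval 0.0582% to 0.123%), 0.0133% of the 50000-cell peaks (interval 0.00534% to 0.0274%) and 0.00505% of the donor MEF peaks (interval 0.000612% to 0.0182%). The Toca1 list had 0.00609% (interval 0.000154% to 0.0339%), and the control NT list, with 0 of 8257 peaks, allows a share of up to 0.0363%. The clusters make up 0.243% of the span of the chromosomes in the lists.

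The clusters were also taken one at a time. On chromosome 2 the 50000-cell list held 3 peaks against 99.0 at the density of the rest, the 1000-cell list 23 against 64.7, donor MEFs 1 against 77.1, and the control NT and Toca1 lists 0 against 15.7 and 31.6. On chromosome 9 the numbers were 4 against 41.4, 7 against 24.0, 1 against 37.4, 0 against 8.78 and 1 against 15.7. The ratios of the 1000-cell list were 0.356 (interval 0.225 to 0.535) on chromosome 2 and 0.291 (interval 0.117 to 0.602) on chromosome 9, with intervals that overlap. Those of the 50000-cell list were 0.0303 (interval 0.00625 to 0.0886) and 0.0967 (interval 0.0263 to 0.248), whose intervals overlap as well. On chromosome 9 the control NT list, with 0 peaks, allows a ratio of up to 0.342, and the interval of the Toca1 list reached 0.355. Both values lie within the interval of the 1000-cell list there. Between the 2 C2C12 lists, the intervals were apart on chromosome 2 and overlapped on chromosome 9, which is a description and not a test. Of the 3 peaks of the 50000-cell list on chromosome 2, 2 lay within 100 kb of the distal edge, and with edges moved inwards by that distance its ratio there was 0.0106. Likewise 3 of the 7 peaks of the 1000-cell list on chromosome 9 lay within 100 kb of an edge, and its ratio there became 0.184.

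**Figure D2:**
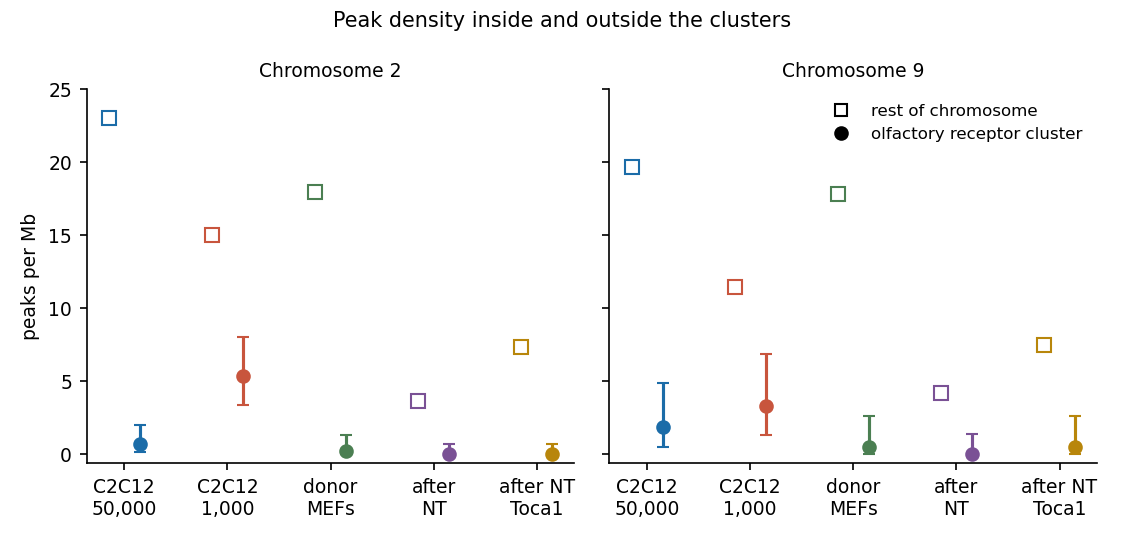
Peaks per Mb (y axis) in each list (x axis) inside the olfactory receptor cluster (filled points) and in the rest of the chromosome (open squares). Bars are exact 95% Poisson intervals, or the range that a count of 0 allows (3 peaks) where no peak was found; on chromosome 2 the point of the 1000-cell list, at 5.35 per Mb, lies above those of all other lists, the highest of which is 0.698.

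The clusters were next set among windows of their own length laid end to end along the chromosome, as a description and not as a test. On chromosome 2, the cluster was the poorest of 41 windows in each of the 5 lists. The poorest other window held 33 peaks in the 50000-cell list (cluster 3), 32 in the 1000-cell list (cluster 23), 24 in donor MEFs (cluster 1), 2 after control NT (cluster 0) and 1 with Toca1 (cluster 0). The cluster thus stood far below the other windows in the 50000-cell and donor MEF lists, and closer to them in the 1000-cell list. On chromosome 9, with 57 windows, 1 other window held fewer peaks than the cluster in the 50000-cell list and 1 did in the 1000-cell list. No window held fewer in donor MEFs, 4 others were also empty after control NT, and 3 others held fewer with Toca1. The rest of both chromosomes includes further olfactory receptor genes, since the RefSeq table gives chromosomes 2 and 9 a total of 556 and the stretches named above 420.

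**Figure D3:**
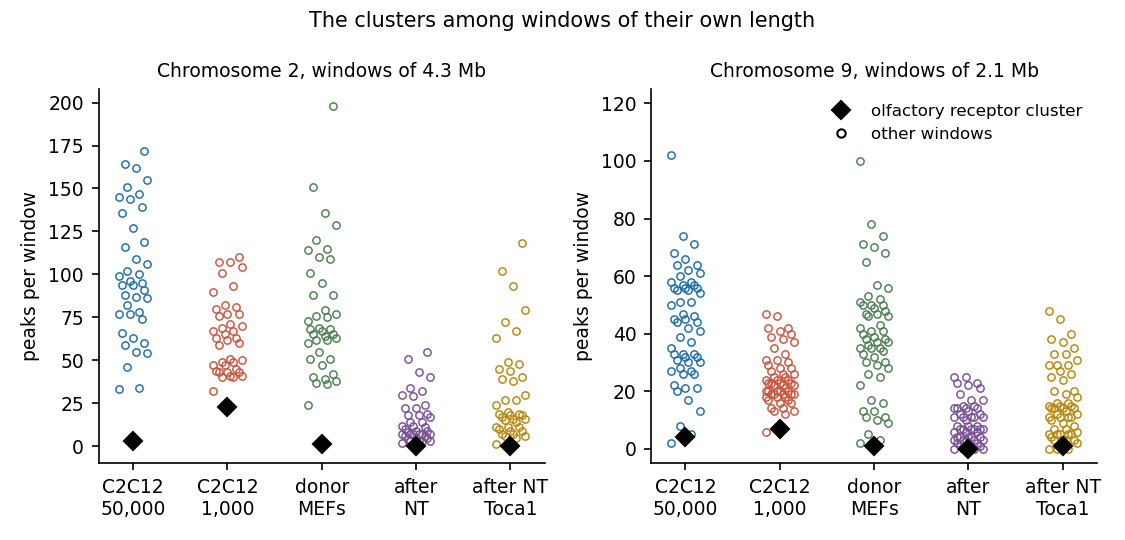
Peaks per window (y axis) for each list (x axis) in windows of 4.3 Mb on chromosome 2 and 2.1 Mb on chromosome 9. Open circles are other windows of the chromosome and black diamonds the olfactory receptor clusters, which on chromosome 2 hold 3, 23, 1, 0 and 0 peaks and are the lowest window in every list.

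In donor MEFs, one peak lay on chromosome 2 from 88053201 to 88053749 (549 bp) and one on chromosome 9 from 38526255 to 38526751 (497 bp). The first overlapped no peak of another list, and the nearest peak of another list, from 1000 C2C12 cells, was 426 kb away. The second overlapped a C2C12 peak of the 50000-cell list, and this was the only site of the clusters found in more than 1 list. Of all 39592 donor MEF peaks, 67.1% overlapped a peak of another list.

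The list from 50000 C2C12 cells held 4 peaks on chromosome 9, arranged as 2 pairs. The first pair lay from 38525732 to 38525991 (260 bp) and from 38526303 to 38526915 (613 bp), 311 bp apart, and its wider peak was the one shared with donor MEFs. The second pair lay from 38761053 to 38761611 (559 bp) and from 38761677 to 38762105 (429 bp), 65 bp apart, and 234 kb from the nearest donor MEF peak. The shared site was 39.4% of the way along the interval. In the RefSeq gene order Vwa5a, which encodes a protein with a von Willebrand factor A domain and is not a receptor gene, has 51 olfactory receptor genes before it and 76 after it in the chromosome 9 stretch. AW551984 and Tmem225 are further protein-coding genes of that stretch that are not receptor genes. No peak was placed relative to any of these genes, because the gene table and the peak lists are in different builds. The place of the shared site along the interval therefore cannot be set against the gene order.

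On chromosome 2 the 50000-cell peaks lay in the distal part of the interval. They ran from 89036551 to 89037081 (531 bp), from 89521560 to 89521972 (413 bp) and from 89532318 to 89532505 (188 bp), the last 67.5 kb from the edge. The first 3.74 Mb of the interval held no 50000-cell peak, and with the flank outside it this made a peak-free stretch of 3.95 Mb, the longest on chromosome 2 in that list. Of the 7 peaks in both clusters, 1 overlapped a peak of another list (14.3%, interval 0.361% to 57.9%), and 53.1% of all 50000-cell peaks did. The interval includes this share, and the other lists had few peaks in the clusters to overlap.

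The single Toca1 peak lay on chromosome 9 from 39757591 to 39757933 (343 bp), 42.1 kb inside the distal edge. It was 144 kb from the nearest donor MEF peak, 242 kb from the nearest control NT peak and 8833 bp from a 1000-cell C2C12 peak. It overlapped no peak of another list, while 57.0% of all Toca1 peaks did. It lay close to the edge of the interval, and it was lost when the edges were moved inwards by 100 kb.

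The 30 peaks from 1000 C2C12 cells lay both near the edges of the clusters and deep inside them. Of these, 19 lay over 500 kb from an edge, a zone that makes up 4.4 of the 6.4 Mb. The density there was 4.32 per Mb, against 5.50 nearer the edges, with intervals that overlap. Several of the chromosome 9 peaks lay within 100 kb of an edge, as given above. On chromosome 2 the 1000-cell peaks occupied 15 of 43 bins of 100 kb (34.9%), against 70.1% of bins in the rest of the chromosome. On chromosome 9 they occupied 5 of 21 (23.8%, against 63.0%). The 50000-cell list occupied 2 of 43 bins (4.65%, against 65.3%) and 2 of 21 (9.52%, against 62.2%). In the rest of the chromosomes the C2C12 lists thus filled a like share of bins, and in the clusters they did not. Inside the clusters, the share of filled bins follows from the low number of peaks already given. A like share of bins does not mean the same peaks. Over the whole list, 8.48% of the 1000-cell peaks overlapped a 50000-cell peak.

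The 1000-cell peaks of chromosome 2 fell into a proximal series of 14 peaks, from 85422971 to 87329945, and a distal series of 9, from 88480000 to 89525141. The 1.15 Mb between them held no 1000-cell peak, and the only chromosome 2 peak of donor MEFs lay in this gap. On chromosome 9, 5 peaks lay between 37754725 and 38612987 and 2 between 39708893 and 39748757, with 1.10 Mb free of peaks between them, the longest such stretch of the 1000-cell list on that chromosome. Within the clusters, neighbouring 1000-cell peaks were a median of 91.8 kb apart, against 40.4 kb in the rest of both chromosomes. Of 28 distances inside, 1 was below 5 kb, against 8.54% outside. A lower density by itself gives wider spacing, so these values are not a separate result.

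None of the 30 peaks overlapped a peak of another list, which allows a share of up to 10.0%, and 9.90% of all 1000-cell peaks did. With 10 peaks of other lists in the clusters there was little to overlap, and the count does not set these peaks apart from the rest of their list. Their distance to the nearest peak of another list had a median of 371 kb (range 2.87 kb to 1455 kb), against 9.54 kb for the 1000-cell peaks in the rest of both chromosomes. The closest was the peak from 89524843 to 89525141 on chromosome 2, at 2870 bp from a 50000-cell peak, and next came the peak from 39748608 to 39748757 on chromosome 9, at 8833 bp from the Toca1 peak. These distances were also set by the few peaks that other lists had in the clusters.

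Of the 4065 peaks of the 1000-cell list in the rest of both chromosomes, 3610 overlapped no other list. Over peaks in no other list, the ratio of cluster to surroundings was 0.389 (interval 0.262 to 0.556). This value follows from the counts already given, since all 30 cluster peaks were kept. The same selection gave a ratio of 0.0978 (interval 0.0358 to 0.213) in the 50000-cell list and 0.0249 (interval 0.000631 to 0.139) in donor MEFs.

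**Figure D4:**
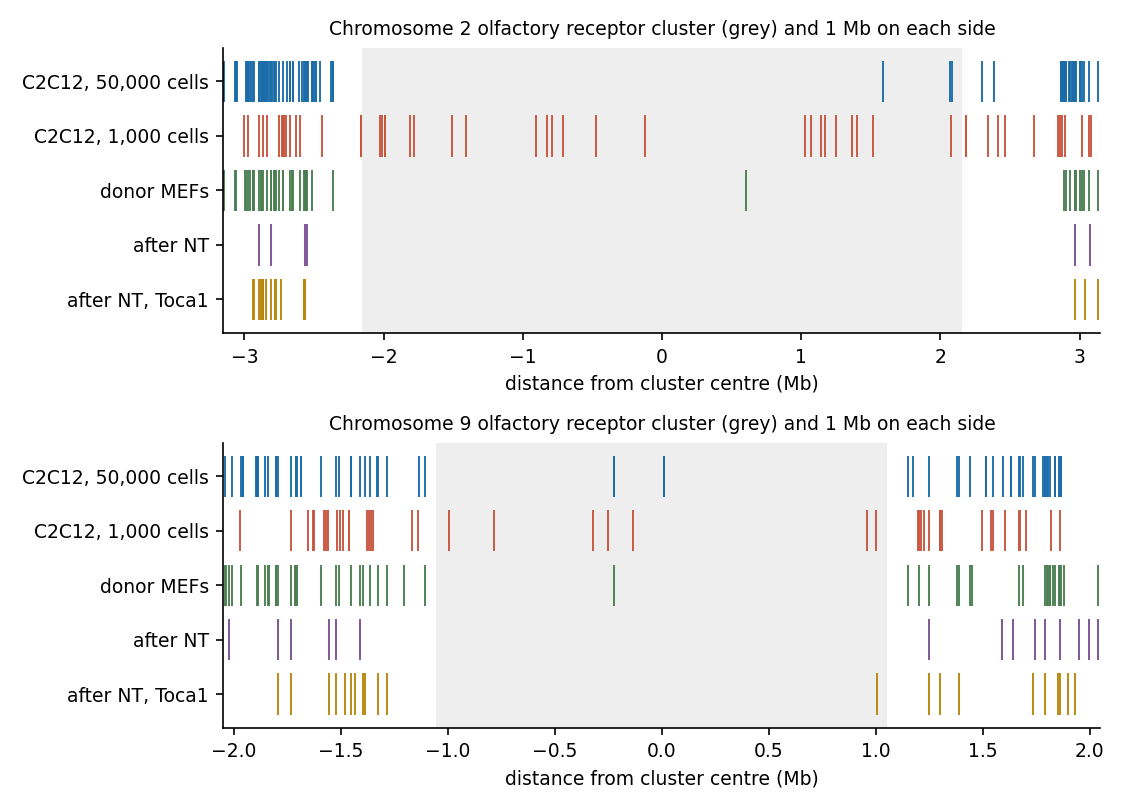
Position of every peak (vertical ticks) along each olfactory receptor cluster (grey) and 1 Mb on each side, as distance from the cluster centre in Mb (x axis), for each list (rows). Inside the clusters the 1000-cell list has 30 ticks, both near the edges and deeper. The 50000-cell list has 7, donor MEFs 2, control NT 0 and Toca1 1. All lists have peaks in the flanks.

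In the 500 kb just outside the 4 edges, pooled, the density was 21.5 peaks per Mb in the 50000-cell list (interval 15.6 to 29.0) and 16.0 in the 1000-cell list (interval 10.9 to 22.6), and donor MEFs had 25 peaks in these 2.00 Mb. In the 500 kb just inside the edges it was 1.00 (interval 0.121 to 3.61) in the 50000-cell list and 5.50 (interval 2.75 to 9.84) in the 1000-cell list, and donor MEFs had 0 peaks, which allows up to 1.50 per Mb. Deeper than 500 kb the densities of these lists were 1.14 (interval 0.369 to 2.65), 4.32 (interval 2.60 to 6.74) and 0.455 (interval 0.0550 to 1.64). These densities pool the edges, which differed. At the proximal edge of chromosome 2 the 50000-cell list had 20 peaks in the 500 kb outside and 0 in the 500 kb inside, donor MEFs 8 and 0, and the 1000-cell list 5 and 6. At the distal edge of chromosome 2 the numbers were 2 and 2 in the 50000-cell list, 0 and 0 in donor MEFs, and 5 and 1 in the 1000-cell list, so that the 50000-cell and donor MEF peaks were as few just outside as just inside. On chromosome 9 the 50000-cell list had 12 and 0 at the proximal edge and 9 and 0 at the distal edge, donor MEFs 10 and 0, and 7 and 0, and the 1000-cell list 11 and 2 at both.

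The distance from an edge to the nearest peak outside it differed between edges. The edges are set coordinates, and whether receptor genes go on beyond them in mm9 was not determined. At the proximal edge of chromosome 9, the nearest outside peaks of the 50000-cell and donor MEF lists lay 58.7 and 58.6 kb away, and those of the 1000-cell list 91.2 kb away. At the distal edge of chromosome 2, the 1000-cell list had a peak 34.5 kb beyond and the 50000-cell list one 151 kb beyond. The nearest donor MEF peak there was 741 kb beyond, and the nearest peaks after control NT and with Toca1 were both 821 kb beyond. At the proximal edge of chromosome 2 the outside peak nearest to the interval was 13.2 kb away in the 1000-cell list, with the first inside peak at 123 kb, and 213 and 214 kb away in the 50000-cell and donor MEF lists. At the distal edge of chromosome 9 the nearest outside peaks lay 102 kb away in both the 50000-cell and the donor MEF list, 146 kb away in the 1000-cell list and 200 kb away in both NT lists.

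In the 1000-cell list, peak widths in the clusters resembled those outside. The 30 peaks from 1000 cells had a median width of 250 bp (interval of the median 223 to 299 bp, quartiles 215 and 328 bp), against 261 bp (quartiles 207 and 343 bp) for 4065 peaks in the rest of both chromosomes. The narrowest peaks were 150 bp wide, which is the minimum of the lists, and 3 of the 30 had that width. The widest were 458 bp (86044325 to 86044782), 449 bp (85940829 to 85941277) and 447 bp (86662038 to 86662484), all on chromosome 2. None exceeded 500 bp, as 5.07% of the 1000-cell peaks outside did. A width of at least 250 bp was reached by 50.0% (interval 31.3% to 68.7%), against 54.0% outside. For comparison, 1000-cell peaks of these chromosomes that overlapped another list had a median width of 290 bp, and those outside the clusters that overlapped none 257 bp.

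The 7 peaks from 50000 cells were 188 to 613 bp wide with a median of 429 bp, against 395 bp outside, and 6 were at least 250 bp wide. The widest of them, at the site shared with donor MEFs, was wider than 77.6% of the 50000-cell peaks outside, and the narrowest was wider than 2.54%. The donor MEF peaks of 549 and 497 bp were wider than 76.9% and 69.5% of the donor peaks outside, and the Toca1 peak was wider than 32.4% of its list outside. Apart from the narrowest 50000-cell peak, the peaks of these lists thus had widths within the bulk of those outside. They are too few for a general statement on width. In covered length the clusters held 8162 bp in the 1000-cell list, 2993 bp in the 50000-cell list, 1046 bp in donor MEFs and 343 bp with Toca1.

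**Figure D5:**
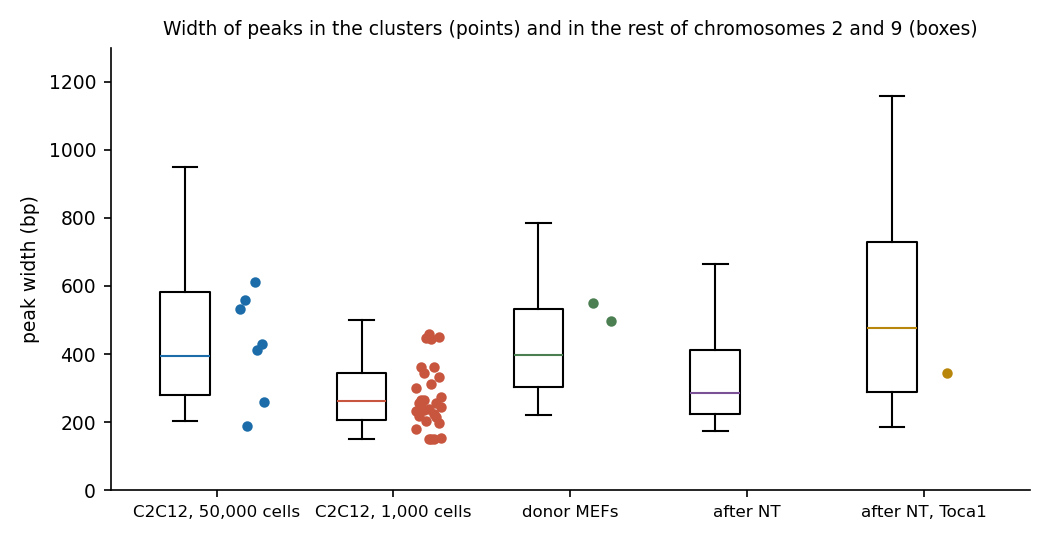
Peak width in bp (y axis) for each list (x axis). Points are the peaks in the olfactory receptor clusters and boxes the peaks in the rest of chromosomes 2 and 9 (line, median; box, quartiles; whiskers, 5% and 95%); the 30 points of the 1000-cell list, between 150 and 458 bp, lie within the range of its box and whiskers.

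Receptor genes of a cluster are close copies of one another, and reads that fit several copies may be dropped or placed at random. How such reads were treated is not given in the sources used here. All 5 lists share the reference, but C2C12 cells and MEFs differ in genotype, so reads may be lost to a different degree. The part of read placement and of genotype in the low densities was not tested.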

How the data were processed

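The authors deposited 5 peak lists, 1 per condition, with chromosome, start and end in bp and a false discovery rate of 0.01 in their names. Lists were assigned to conditions by name. Per the labels, the submitters' processing notes name mm9, Bowtie2 2.2.1, Picard and MACS2 2.1. How 2 libraries of a condition gave 1 list is not given in the sources used here. Starts were changed to 1-based. Density was the number of peaks per Mb, and the rest of a chromosome ran from its first base to the largest peak end in the 5 lists, outside the cluster. Ratios have Clopper-Pearson intervals given the total, densities exact Poisson intervals, and ratios between lists conditional odds ratio intervals, all 95%. A count of 0 was given a limit of 3 peaks, which is below the upper end of an exact interval. For 0 donor MEF peaks in the 500 kb inside the edges, for example, it gives 1.50 per Mb against 1.84. No p-value was computed, because peaks of 1 list are not replicates. Every peak was named in lists with at most 10 cluster peaks. In the longer list the 3 widest, those overlapping another list and those nearest the edges were to be named, and its peaks closest to other lists and at the ends of each series were chosen after their values were seen. The clusters, lists and measures were chosen with earlier results of these data known. Counting and overlap were tested on simulated data. Python 3.11.15, numpy 2.4.6, scipy 1.17.1 and matplotlib 3.10.9 were used.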

Additional observations from a re-analysis of the deposited data

How the results depend on the processing

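The density ratios of the 5 lists, for each cluster and for both together, were recomputed with peaks at least 250 bp wide, peaks up to 150 bp apart joined, peaks placed by their midpoint, edges moved inwards by 100 kb, the rest counted from the smallest peak start, the 5 Mb on each side or all other autosomes as surroundings, covered length in place of peak number, and, added after the data were seen, only peaks in no other list. Of 135 values, 36 started from a count of 0, to which these settings could add no peak. Of the other 99, 3 left the interval of the reported ratio. The donor MEF and Toca1 values among the 99 rest on at most 2 cluster peaks. Their intervals are wide and could hardly be left except by losing a peak. With edges moved inwards the Toca1 ratios on chromosome 9 and over both clusters were 0, and with only peaks in no other list the donor MEF ratio on chromosome 9 was 0, each by the loss of 1 peak. For both clusters the 1000-cell ratio ranged from 0.319 to 0.389, the 50000-cell ratio from 0.0385 to 0.0978 and the donor MEF ratio from 0.0151 to 0.0249. On chromosome 2 the 50000-cell ratio ranged from 0.0106, with edges moved inwards, to 0.0660, and on chromosome 9 the 1000-cell ratio from 0.184, with edges moved inwards, to 0.334. With only peaks in no other list, the 50000-cell ratio on chromosome 9 was 0.175 and the donor MEF ratio on chromosome 2 was 0.0385, and the Toca1 ratios were 0.145 on chromosome 9 and 0.0482 over both clusters, all within their intervals. By covered length the Toca1 ratio was 0.0408 on chromosome 9 and 0.0132 over both clusters. None of 4 settings for width and 6 for overlap moved its value past the interval. The overlap count of the 1000-cell list was 0, and only the setting that took peaks within 500 bp could have raised it. The overlap interval of the 50000-cell list, from 1 of 7 peaks, was too wide to be left easily. No library could be left out and no paired analysis was possible because the libraries of a condition share 1 list. Without read numbers, low densities are calls not made at an unknown depth.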
